A study of Mus musculus with 4 samples.

Results

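The foot process is the finger-like extension by which a podocyte, the epithelial cell that wraps the glomerular capillary, holds to its neighbours, and the slit diaphragm is the junction that spans the gap between adjacent foot processes. Described here are 8 genes of that structure, taken by name from the 27932 genes in the count tables and all found in each of the 4 libraries. They are Nphs1, Kirrel, Cd2ap and Magi2 of the slit diaphragm, and Podxl, Synpo, Ptpro and Clic5 of the foot process membrane and its actin skeleton. The libraries were made by Drop-seq, which pairs each cell with a barcoded bead in a droplet and counts transcripts from their 3′ ends, from mouse kidneys at stage E14.5. Both genotypes are on a mixed background, mostly CD-1 and 129, and 2 libraries are wildtype while 2 are from mutants labelled Hoxa9,10,11 and Hoxd9,10,11 -/-. The labels do not say whether a library came from 1 kidney, 1 embryo or a pool, so the spread between libraries of a genotype may be technical.

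Nephrin, the product of Nphs1, and the related protein Neph1, the product of Kirrel, reach across the slit from facing foot processes and bind each other. Inside the cell their tails are held by adaptors and scaffolds that lead to the actin bundles of the foot process, whose surface is kept open by a negatively charged coat of podocalyxin. Podocytes arise from the proximal end of the S-shaped body of the early nephron, and the genes of the slit diaphragm are known to be switched on as these cells leave the columnar epithelium.

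Each cell was assigned to a lineage from genes other than the 8. A cell entered a gate if it had at least 3 unique molecular counts (UMIs) over at least 2 genes of that gate's marker list and at least 2 times as many UMIs of that list as of any other of the 13 lists. Of 11778 cells kept from 15144 barcodes, 354 entered the podocyte gate, with 30 and 90 cells in wildtype 1 and 2 and 30 and 204 cells in mutant 1 and 2. The early nephron gate held 815 cells, the endothelial gate 800, the stromal gate 3250 and the gate of ureteric bud and collecting duct 473. Cldn5, a junction gene that endothelium also expresses, gave 16.6% of the podocyte list's UMIs in the podocyte gate. Of the 354 cells, 23 stood exactly at the limit of the gate.

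The label of the podocyte gate was checked with Wt1 and Tcf21, transcription factors of podocytes that are in no gate list. In CPM, UMI counts scaled to a common library total, of the summed podocyte-gated cells, in the order wildtype 1, wildtype 2, mutant 1 and mutant 2 that is kept below, Wt1 was at 588, 617, 541 and 838 and Tcf21 at 825, 1124, 404 and 948. In early nephron-gated cells both lay at 86.1 CPM or below in each library. In stroma-gated cells Wt1 was at 26.0, 31.8, 44.4 and 55.7 CPM, but Tcf21 was at 387, 659, 191 and 336. Tcf21 thus sets the gate apart from early nephron and only weakly from stroma. RNA of other marker lists was also present in the podocyte gate. The summed stromal list was at 484, 248, 274 and 838 CPM. Most of it was Col1a2 (465, 184, 245 and 781), while Pdgfra, Lum, Dcn and Postn each had at most 34.4 CPM. The early nephron list was at 275, 413, 368 and 441 CPM and the nephron progenitor list at 114, 278, 93.8 and 124 with Meox1 at 0. The ureteric list was at 75.9, 44.3, 0 and 71.9 CPM with Ret, Wnt9b, Aqp2 and Ehf at 0. The endothelial list was at 66.4, 24.6, 43.3 and 42.6 CPM with Tie1 and Esam at 0. The immune list was at 9.48, 9.84, 14.4 and 12.0 CPM with Ptprc, C1qa, C1qb and Cx3cr1 at 0. Whether other cells were in the gate, and their part in the values of the 8 genes, was not tested.

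Depth differed between libraries. The tables summed to 9817486, 24834658, 3572346 and 21350698 counts, and kept cells had a median of 3597, 3466.5, 2393.5 and 3027 UMIs. Mitochondrial counts passed 10% in 7.76% and 9.06% of wildtype barcodes and in 19.6% and 29.1% of mutant barcodes, which were left out. Libraries of a pair shared at most 2 barcodes. All 6 targeted genes were read in every library. Over all kept cells Hoxa9 was at 127, 127, 140 and 163 CPM, Hoxd9 at 27.1, 39.5, 49.7 and 47.5, Hoxd10 at 40.4, 40.8, 62.9 and 84.8 and Hoxd11 at 76.7, 53.7, 113 and 197, each higher in both mutant libraries. Hoxa10 was lower in both (155, 175, 93.8 and 127 CPM), Hoxa11 overlapped (19.96, 64.4, 29.6 and 41.7 CPM), and a 3′ count need not read the altered part of a gene.

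In the mm10 assembly, with genes as annotated in GENCODE vM21, Nphs1 lies at chr7:30458315-30487223 on the plus strand, 625 bases from the start of the divergent Kirrel2, and overlaps the antisense gene Nphs1os. Kirrel lies at chr3:87078593-87174747 (minus), Magi2 at chr5:19227036-20704792 (plus), Podxl at chr6:31519488-31563981 (minus) and Ptpro at chr6:137252319-137463233 (plus). Cd2ap at chr17:42792951-42876665 (minus) and Clic5 at chr17:44188584-44280172 (plus) share a chromosome. The 250 bases before the RefSeq start of Ptpro, Clic5 and Cd2ap are shown because these genes span the range of patterns found below, from podocyte-gated and immune cells (Ptpro), through podocyte, endothelium and proximal tubule (Clic5), to every lineage compared (Cd2ap). They are from RefSeq, build GRCm38.p6, on the strand of the gene, with each CG dinucleotide in capitals. In the GENCODE span of Cd2ap, 241 bases of its window fall within the gene, in the first exon of a transcript not annotated as protein-coding, and 0 bases fall in an exon of a protein-coding transcript.
Ptpro, chr6:137252049-137252298 (plus): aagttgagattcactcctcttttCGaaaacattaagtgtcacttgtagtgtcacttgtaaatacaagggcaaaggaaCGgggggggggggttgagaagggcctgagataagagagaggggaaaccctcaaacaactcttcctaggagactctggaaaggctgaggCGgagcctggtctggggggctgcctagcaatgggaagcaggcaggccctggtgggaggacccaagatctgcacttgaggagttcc
Clic5, chr17:44188322-44188571 (plus): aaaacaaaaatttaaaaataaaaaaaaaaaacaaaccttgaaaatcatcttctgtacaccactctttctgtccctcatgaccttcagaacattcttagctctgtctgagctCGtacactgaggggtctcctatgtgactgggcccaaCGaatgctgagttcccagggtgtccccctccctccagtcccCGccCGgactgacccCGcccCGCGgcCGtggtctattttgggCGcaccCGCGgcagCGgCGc
Cd2ap, chr17:42876425-42876674 (minus): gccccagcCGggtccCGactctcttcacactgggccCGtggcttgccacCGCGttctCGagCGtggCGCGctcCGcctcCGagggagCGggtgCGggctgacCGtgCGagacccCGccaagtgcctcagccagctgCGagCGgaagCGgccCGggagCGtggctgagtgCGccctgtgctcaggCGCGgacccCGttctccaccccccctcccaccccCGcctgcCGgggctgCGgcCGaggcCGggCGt
The Ptpro window holds 3 CG dinucleotides and 53.6% G and C, the Clic5 window 13 and 52.8%, and the Cd2ap window 31 and 76.4%. Among 32851 such windows, whose median is 6 CG dinucleotides, Cd2ap stands at percentile 95.4, Clic5 at 70.6 and Ptpro at 37.8. These counts describe 3 windows and carry no test.

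Nphs1, the transmembrane backbone of the slit diaphragm, was nearly restricted to podocyte-gated cells among gated cells. Its level there was 436, 64.0, 195 and 228 CPM, from 46, 26, 27 and 171 UMIs. Wildtype 1 was highest and wildtype 2 lowest, so the genotypes overlapped. In early nephron-gated cells the level was 1.08, 0.741, 0 and 1.51 CPM, from 6 UMIs in all, and in stroma-gated cells it lay between 0.766 and 2.50 CPM. Podocyte-gated cells held 44.2% of the gene's UMIs, and most of the rest lay in cells that reached a list but entered no gate. The antisense gene cannot be told apart from Nphs1 where the handling of strand is not stated, and Nphs1os had 7 UMIs in the podocyte gate.

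Kirrel showed a different distribution. In podocyte-gated cells it was at 9.48, 19.7, 0 and 9.32 CPM, from 1, 8, 0 and 7 UMIs. The 0 in mutant 1 lies in a sum of 30 cells and does not show absence at this depth. In stroma-gated cells Kirrel was at 10.9, 14.7, 13.0 and 16.9 CPM, a narrow range across the 4 libraries, and that gate held 42.2% of its UMIs against 3.67% in the podocyte gate. Early nephron-gated cells had 1.08, 5.18, 6.63 and 4.52 CPM, below the stromal level in every library.

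Cd2ap, the adaptor that ties nephrin's tail to actin and to membrane traffic, was detected in every lineage compared. Podocyte-gated cells had 455, 256, 289 and 724 CPM, early nephron-gated cells 250, 157, 159 and 336, and stroma-gated cells 130, 102, 100.3 and 170. Ureteric bud and collecting duct cells had 338, 259, 390 and 536 CPM. The order of podocyte over early nephron over stroma held in all 4 libraries, while podocyte and ureteric levels changed places between libraries. Mutant 2 was highest for Cd2ap in each of these 4 gates. It was also highest for the nuclear RNA Malat1 in podocyte-gated cells (3783, 2689, 3529 and 9894 CPM), and the part of RNA quality in the Cd2ap level was not tested.

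Magi2, a scaffold with several PDZ domains that binds nephrin, was sparse. Podocyte-gated cells had 9.48, 7.38, 0 and 26.6 CPM from 1, 3, 0 and 20 UMIs, and they held 17.1% of the gene's 140 UMIs. Mutant 2 supplied most of this signal. Proximal tubule cells had 6.72, 6.60, 0 and 6.68 CPM from 8 UMIs in all, and no UMI was found in endothelial or immune cells.

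Podxl encodes podocalyxin, the sialomucin of the podocyte surface that is also found on endothelium. It was at 417, 209, 180 and 804 CPM in podocyte-gated cells and at 92.7, 76.8, 89.5 and 117 CPM in endothelial cells. The podocyte level was above the endothelial level in all 4 libraries, and the endothelial level varied less between libraries. Early nephron-gated cells had 1.08, 3.70, 13.3 and 9.54 CPM, stroma-gated cells between 1.45 and 11.9 CPM, and immune cells had no UMI.

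Synpo, at chr18:60593973-60660142 (minus), encodes synaptopodin, which binds actin and alpha-actinin in the foot process. Podocyte-gated cells had 228, 86.1, 36.1 and 178 CPM, from 24, 35, 5 and 134 UMIs. Mutant 1 was lowest and rests on 5 UMIs. Stroma-gated cells had 7.24, 7.14, 2.30 and 8.53 CPM, and the few mural cells, contractile cells of vessel walls, had 395, 23.3, 0 and 74.7 CPM, from 4, 1, 0 and 3 UMIs in 4, 12, 2 and 7 cells.

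Ptpro encodes the receptor phosphatase GLEPP1 of the podocyte's outer surface. Its podocyte-gate level was 180, 66.4, 28.9 and 181 CPM, from 19, 27, 4 and 136 UMIs, with wildtype 1 and mutant 2 high and wildtype 2 and mutant 1 low. Among other gates only immune cells stood above 5 CPM in each library, at 9.87, 23.4, 62.4 and 27.4 CPM from 1, 5, 4 and 5 UMIs. Ptpro is known from macrophages as well as podocytes. Early nephron-gated cells had 1.08, 0.370, 0 and 4.02 CPM.

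Clic5, which links podocalyxin and ezrin to the actin cortex, was at 190, 27.1, 115 and 366 CPM in podocyte-gated cells, from 20, 11, 16 and 275 UMIs. Wildtype 2 was lowest and mutant 2 highest, and wildtype 1 lay above mutant 1. Outside podocytes it was found in endothelium (38.6, 24.98, 0 and 31.4 CPM) and in proximal tubule (40.3, 11.0, 29.98 and 51.2 CPM), whose brush border also holds ezrin. Ureteric bud and collecting duct cells had 1 UMI in the 4 libraries.

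**Figure D1:**
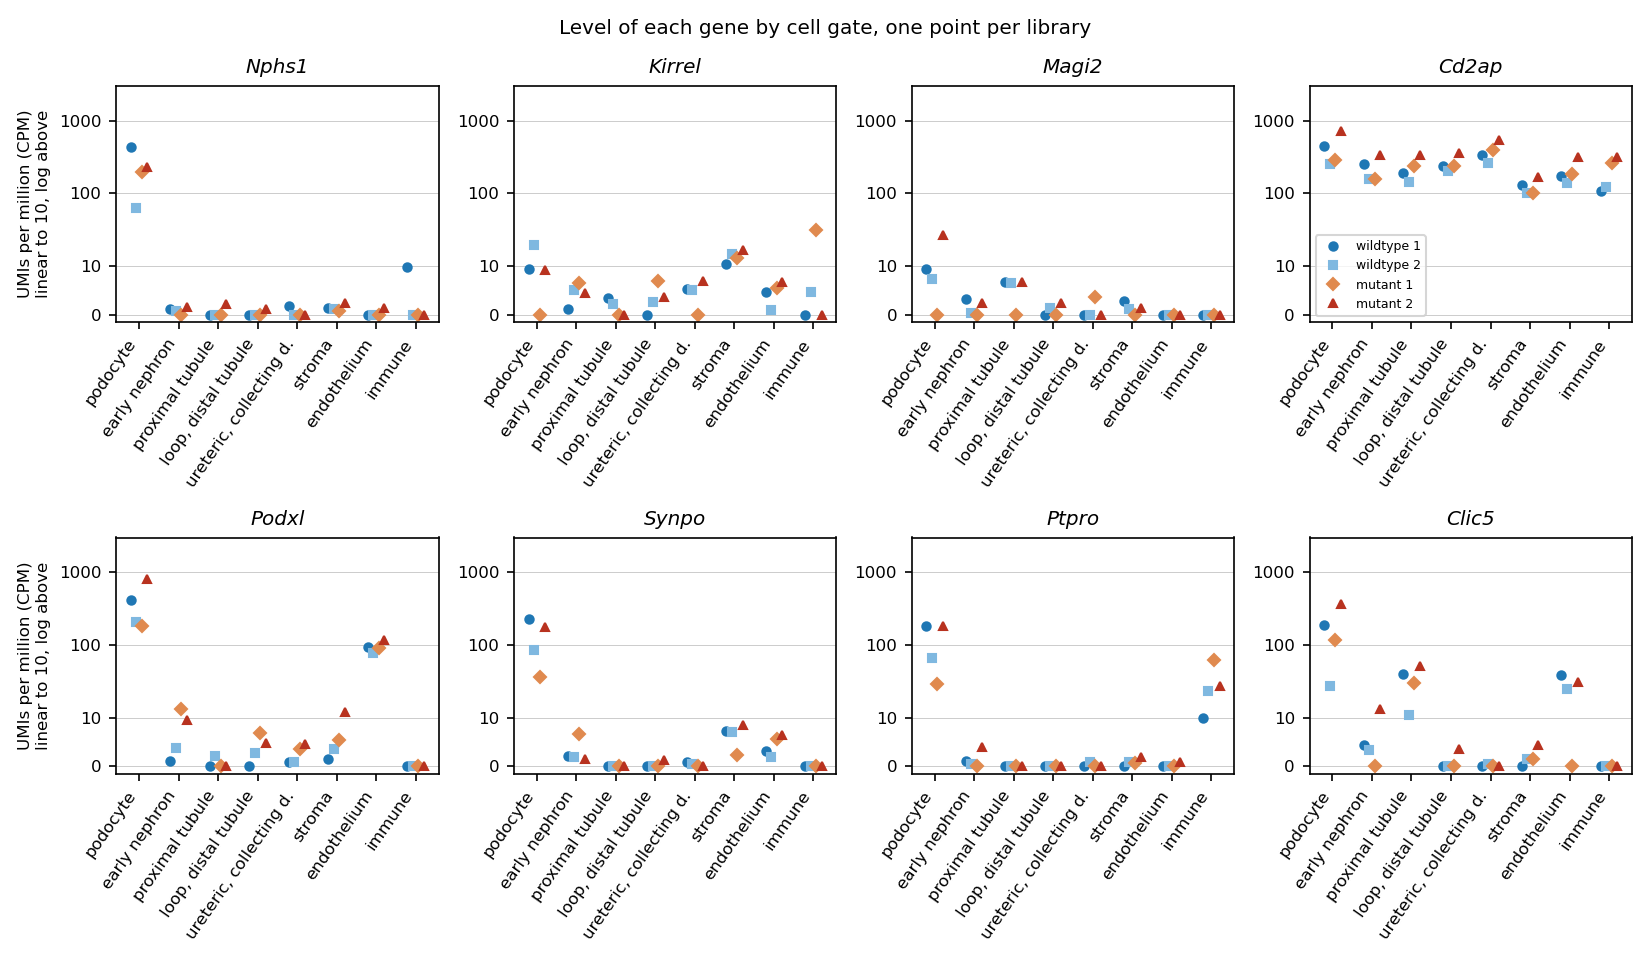
Level of each gene per gate, in CPM of summed cells (linear up to 10 and logarithmic above), with 1 point per library. Nphs1 and Ptpro drop to a few CPM or 0 outside podocyte-gated cells in most gates, Podxl keeps 76.8 to 117 CPM in endothelium, and Cd2ap stays above 100 CPM in the podocyte, early nephron, ureteric and stromal gates.

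Against early nephron-gated cells, 6 of the 8 genes passed the filter on low counts and were called higher in podocyte-gated cells. Nphs1, Ptpro and Synpo had 6, 10 and 11 UMIs in early nephron-gated cells and passed through their podocyte level, so the count of 6 is a description. In this edgeR fit, 37.0% of 8527 genes were called at a Benjamini-Hochberg adjusted p of 0.05 and 17.6% were called higher. The log2 fold change was 7.16 for Nphs1 (SE 0.33, 143-fold), 6.17 for Podxl (SE 0.22), 5.96 for Synpo (SE 0.34), 5.94 for Ptpro (SE 0.36) and 4.52 for Clic5 (SE 0.27). Cd2ap differed least, by 0.80 (SE 0.13, 1.74-fold), with the largest adjusted p of the 6, 2.12e-08 in edgeR. The fit used library as a block and took 1 spread for all genes at a given level. Without the library block Cd2ap had an adjusted p of 0.0605 in edgeR, while the other 5 were called. Magi2 and Kirrel failed the filter and are not among the 6.

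Against endothelium 6 of the 7 genes tested were higher in podocyte-gated cells, in a fit where 37.4% of genes were called and 17.8% called higher. Nphs1 and Ptpro had 3 and 2 UMIs in endothelium and passed the filter through other gates, so the count of 6 is a description. The log2 differences were 7.85 for Nphs1, 7.80 for Ptpro, 4.79 for Synpo, 2.42 for Clic5, 1.90 for Podxl and 0.87 for Cd2ap. Podxl and Clic5 thus kept the smallest margins after Cd2ap, and neither was called when the podocyte gate needed no lead over other lists, a setting chosen with these values in view (edgeR adjusted p of 0.241 and 0.315). Against stroma 6 of 7 were higher (28.0% of genes called, 12.2% higher), from 1.61 for Cd2ap to 6.64 for Nphs1. In stroma Nphs1, Ptpro and Clic5 had 23, 16 and 36 UMIs. They passed the filter through other gates, so the count of 6 and their fold changes are descriptions. Kirrel was at -0.54 against stroma, with a 95% interval from -1.46 to 0.38 and an edgeR adjusted p of 0.422. Against ureteric bud and collecting duct 5 of 7 were higher (24.3% of genes called, 11.3% higher), from 7.33 for Ptpro to 8.54 for Clic5. In that gate Clic5 had 1 UMI, Nphs1, Ptpro and Synpo 2 each and Podxl 6. These genes passed the filter through other gates, so the count of 5 and its fold changes are descriptions. Cd2ap differed there by 0.15, with a 95% interval from -0.10 to 0.40. Magi2 failed the filter in each of these fits.

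**Figure D2:**
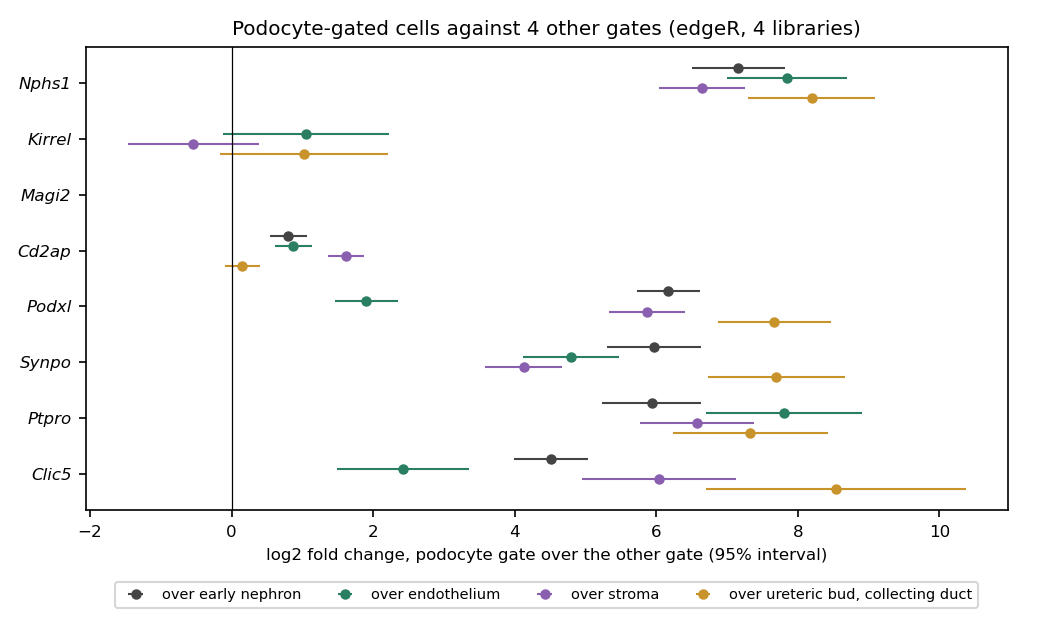
Log2 fold change of podocyte-gated cells over early nephron, endothelium, stroma and ureteric bud with collecting duct, with 95% intervals from edgeR over 4 libraries. Nphs1 and Ptpro lie above 5 against every gate, Podxl and Clic5 come closest to endothelium, and Kirrel's intervals include 0; genes that failed the filter have no point.

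The same fit compared each other lineage with the remaining ones, leaving podocyte-gated cells aside. Endothelium was higher in 2 of the 7 genes tested (41.0% of genes called, 20.5% higher), Podxl by 4.65 (SE 0.25) and Clic5 by 3.96 (SE 0.56) on the log2 scale. Stroma was higher in 2, Synpo by 2.03 (SE 0.37) and Kirrel by 1.66 (SE 0.29), and lower in Cd2ap, at -1.01 (SE 0.10), in a fit where 43.2% of genes were called, 23.4% higher and 19.9% lower. Ureteric bud and collecting duct was higher in Cd2ap by 0.94 (SE 0.09) and lower in Podxl, Synpo and Clic5, at -3.03, -2.73 and -4.20, where 34.2% of genes were called, 18% higher and 16.2% lower. Clic5's lower call there had an edgeR adjusted p of 0.0201 and was lost without wildtype 1 or without mutant 1 (0.0928 and 0.0644). Synpo had 11, 19 and 2 UMIs in early nephron, endothelium and ureteric bud with collecting duct, and Kirrel had 25, 20 and 20. In the last of these gates Podxl had 6 UMIs and Clic5 1. These 4 genes passed the filter through gates where they were higher, so their calls in this fit are descriptions. Early nephron differed in 0 of 7 by edgeR, where 38.8% of genes were called; the lowest value was Podxl at -0.98 (unadjusted p 0.0487, the single member of the 7 with an unadjusted p under 0.05).

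Cells that reached the podocyte list but entered no gate differed by gene and by the other list with the most UMIs in them. That other list need not have been reached under the rule of its gate. Of 814 kept cells that reached the podocyte list, 297 were mixed. The other list was the early nephron list in 124 of them and the stromal list in 134. They are named by these lists below. In the cells with the podocyte and early nephron lists, Nphs1 was at 14.3, 13.2, 35.7 and 20.4 CPM, above the early nephron gate and below the podocyte gate in each library. These levels rest on 2, 5, 3 and 7 UMIs in 1, 3, 2 and 4 cells. Podxl was at 14.3, 21.1, 178 and 95.9 CPM and Clic5 at 21.4, 21.1, 47.6 and 72.7 CPM. Both were above the early nephron gate and below the podocyte gate in all 4 libraries, although Podxl nearly reached it in mutant 1. Ptpro, at 14.3, 5.28, 23.8 and 23.3 CPM from 2, 2, 2 and 8 UMIs, also lay between the gates in each library. Synpo and Cd2ap did not: Synpo was at 0, 10.6, 0 and 20.4 CPM, and Cd2ap at 164, 132, 226 and 404 CPM stood below the early nephron gate in both wildtype libraries. These cells had a median of 5868, 5647.5, 6758 and 4891 UMIs, against 3506.5, 3799, 2873.5 and 3439 in the podocyte gate and 6217, 6786, 3280.5 and 5525 in the early nephron gate, and the part of doublets in these levels was not tested.

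In the cells with the podocyte and stromal lists the levels were close to or above those of the podocyte gate in 3 of the 4 libraries. There Nphs1 was at 442, 12.0, 335 and 567 CPM, Podxl at 955, 24.1, 167 and 1805, and Ptpro at 265, 12.0, 67.0 and 457. In wildtype 1 and mutant 2 all 3 stood at or above the podocyte-gate level, and in wildtype 2 they stood far below it. The collagen gene Col1a2 gave 139 of their 147 UMIs of the stromal list in wildtype 1, 97 of 104 in mutant 1 and 1062 of 1095 in mutant 2, but 51 of 108 in wildtype 2. The collagen genes Col1a1 and Col3a1, in no list, had 4, 31, 17 and 28 and 8, 41, 19 and 42 UMIs. Without Col1a2 in the stromal list, a change made after these values were seen, the podocyte gate grew to 47, 96, 38 and 297 cells. Magi2 and Kirrel then passed the filter and stood above early nephron-gated cells, by 3.57 and 1.44 on the log2 scale. The change brought in cells already seen to be rich in several of the 8 genes, so these values are a description and carry no test.

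**Figure D3:**
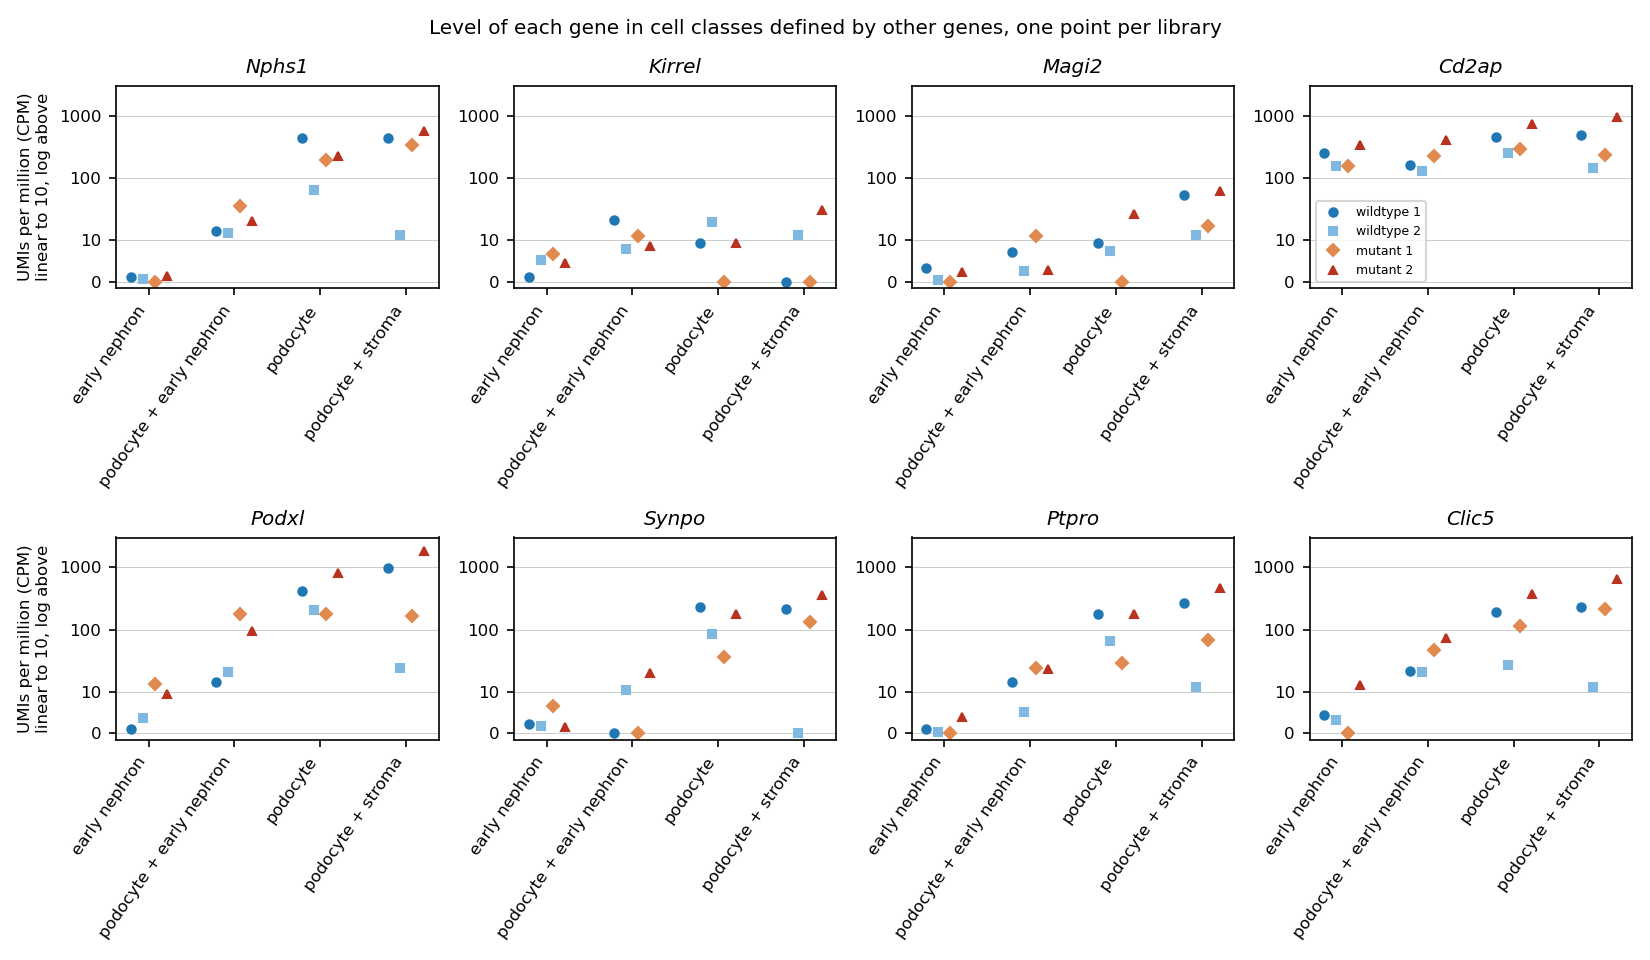
Level of each gene in CPM (linear up to 10 and logarithmic above) in early nephron-gated cells, cells with the podocyte and early nephron lists, podocyte-gated cells and cells with the podocyte and stromal lists, with 1 point per library. Nphs1 rises over the first 3 classes in each library, from at most 1.51 CPM over 13.2 to 35.7 CPM to at least 64.0 CPM. Its level in the second class rests on 2, 5, 3 and 7 UMIs in wildtype 1, wildtype 2, mutant 1 and mutant 2.

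Counts per cell depend on depth, so each cell was thinned to 1000 UMIs to compare how many of the genes it showed. Cd2ap was left out because it is found in every gate. At least 1 of the other 7 genes was seen in 65.5%, 38.8%, 37.0% and 65.8% of podocyte-gated cells, against 2.38%, 1.19%, 3.70% and 4.26% of early nephron-gated cells. At least 2 were seen in 31.0%, 4.71%, 11.1% and 36.3% of podocyte-gated cells and in no early nephron-gated cell. The order of the libraries changed with the depth, and so did the cells compared. Thinning to 2000 UMIs left out 4, 13, 13 and 49 podocyte-gated cells as too shallow, and thinning to 500 UMIs left out 0. Thinned to 500 UMIs the share with at least 1 gene was 40%, 23.3%, 36.7% and 53.4%, and thinned to 2000 UMIs it was 53.8%, 45.5%, 52.9% and 76.1%, so that mutant 2 was highest at each of the 3 depths and the place of the others changed. At 1000 UMIs the share with at least 1 gene was 52.2% ± 18.9 (SD, n = 2) in wildtype and 51.4% ± 20.3 (SD, n = 2) in mutant libraries (a two-sided exact permutation test gave p = 1, and 2 libraries against 2 cannot give less than 0.333).

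For Nphs1 alone the thinned shares were 8 of 29, 5 of 85, 5 of 27 and 30 of 193 podocyte-gated cells, or 27.6%, 5.88%, 18.5% and 15.5%. No thinned early nephron-gated cell had an Nphs1 UMI, which allows shares of up to 2.38%, 0.896%, 11.1% and 0.984%. These limits are for thinned cells with a UMI and not for cells that express the gene, and before thinning 6 of the 815 cells had one. Free RNA in droplets can give a UMI to any lineage. Podxl, Synpo and Clic5 had 6, 2 and 1 UMIs in ureteric bud and collecting duct. In that gate at least 1 of the 7 genes was seen in 2.27%, 0.866%, 2.5% and 0% of thinned cells. Its cells had a median of 4746, 5597, 5320 and 5396.5 UMIs before thinning. Thinning to 1000 UMIs left out 1, 5, 3 and 11 podocyte-gated cells as too shallow.

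**Figure D4:**
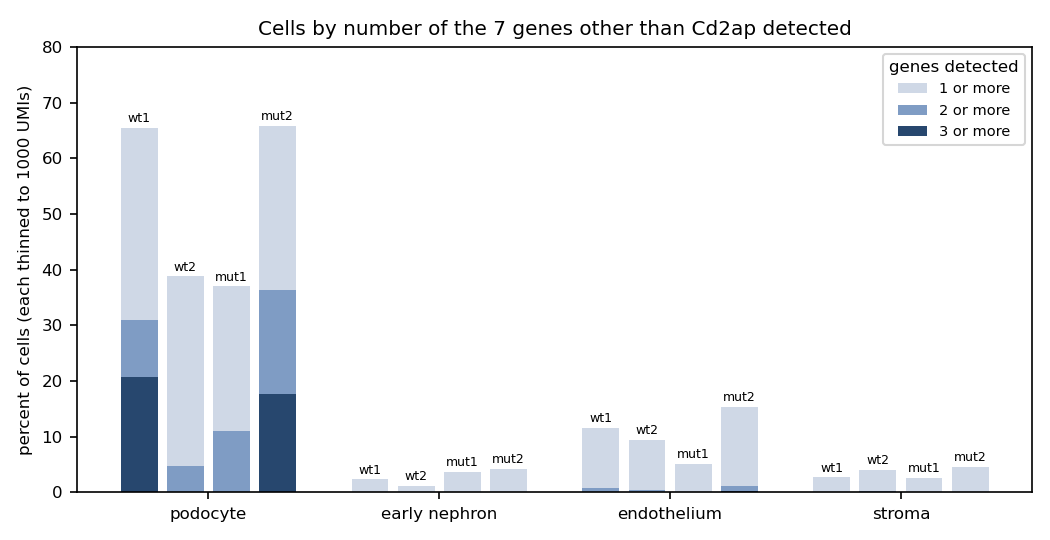
Percent of cells per library, thinned to 1000 UMIs, that showed members other than Cd2ap, by gate. Podocyte-gated cells with at least 1 gene range from 37.0% to 65.8%, and early nephron-gated cells from 1.19% to 4.26%.

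Within podocyte-gated cells, a cell with Nphs1 more often showed the other genes than a cell without it. Nphs1 was detected in 127 of the 354 cells, and Podxl was seen in 77.2% of these and in 42.3% of the others. Clic5 was seen in 59.1% against 26.0%, Synpo in 48.8% against 25.1% and Ptpro in 48.0% against 22.0%. Cells pooled from 4 libraries share differences of library and depth. Over cells, the correlation between Nphs1 and Podxl was 0.09 in wildtype 2 and 0.48 in mutant 2, and that between Podxl and Ptpro was 0.34 and 0.50. These are descriptions over cells of 1 library each.

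The other genes of the same structures were compared by 5 lists, in the fit over early nephron-gated cells where 37.0% of all genes were called and 17.6% called higher. Of 9 podocyte transcription factors 8 were higher in podocyte-gated than in early nephron-gated cells and 0 were lower, with a median log2 difference of 3.04. Those with the smallest p were Tcf21 (4.15), Wt1 (3.24), Foxc2 (3.30) and Foxc1 (1.95). Of 24 foot process actin and membrane linkers 14 were higher and 2 lower, with a median of 0.78. Slc9a3r2, which encodes the ezrin and podocalyxin partner NHERF2, was higher by 3.82, the intermediate filament gene Nes by 3.04 and the GTPase regulator Arhgap24 by 2.15. Clic4, a relative of Clic5, was lower, at -1.73 (SE 0.19), opposite to Clic5.

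Of 16 slit diaphragm partners 13 passed the filter and 2 were higher, a share near the 17.6% of all genes, with a median of 0.25. One was Plce1 (2.51), whose UMIs helped to choose the cells, so its value carries no test, and the other was Crb2 (3.49), a transmembrane protein of cell polarity needed at the slit. The junction protein gene Tjp1, by contrast, was at 0.61 with an adjusted p of 0.120 in edgeR. Of 16 basement membrane and adhesion genes 14 passed the filter and 10 were higher, with a median of 0.85, led by Parva (2.24), Itgb1 (0.85), Itga3 (2.83) and Col4a5 (2.02). The integrin chains Itga3 and Itgb1 form the receptor that fixes podocytes to laminin. Of 10 RNA quality and stress genes 7 passed and 5 were higher, from 0.55 to 3.23, so signs of handling also moved with this comparison and their part was not tested.

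Between genotypes no gene was called in podocyte-gated cells (0% of 5034 by edgeR and by DESeq2, with 162 at an unadjusted p below 0.05 in edgeR), and 6 of the 8 genes passed the filter. The values are those given above for each library, and the libraries of the 2 genotypes overlapped for each of the 6. The log2 fold change of mutant over wildtype was -0.03 for Nphs1 (95% interval from -1.34 to 1.27), -0.24 for Synpo (from -1.47 to 0.997) and 0.12 for Ptpro (from -1.19 to 1.42). Podxl was at 0.74 (from -0.43 to 1.90) and Cd2ap at 0.58 (from -0.42 to 1.58). Clic5 was at 1.56 (from 0.03 to 3.09, unadjusted p 0.0465, adjusted p 0.9999 in edgeR). For Nphs1 and Ptpro the interval includes differences of more than 2-fold in either direction. On simulated counts of the same genes the fit recovered 0% of 2-fold and 52% of 4-fold changes. Those counts gave every gene 1 common spread (dispersion 0.0925), and the spread of each of the 8 genes was not simulated. Nphs1, for example, was at 436 and 64.0 CPM in the 2 wildtype libraries, so these shares need not hold for it.

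Single libraries decided several of these values. Without wildtype 1 Clic5 was called, at 3.13 (adjusted p 0.00255 in edgeR), and Nphs1 stood at 1.67. Without mutant 2 Clic5 fell to 0.52, and Podxl, Ptpro and Synpo stood at -0.63, -1.82 and -1.86. Of the pathway lists 0 genes were called between genotypes in podocyte-gated cells by edgeR. The smallest p in each list belonged to Fyn (1.32), a kinase that phosphorylates nephrin, Palld (1.07), Col4a5 (1.27), Foxc2 (0.99) and Malat1 (1.05). The genotype effect in podocyte-gated and early nephron-gated cells was compared directly as an interaction, in which 5 of 8527 genes (0.0586%) were called and none of the 6 genes tested.

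**Figure D5:**
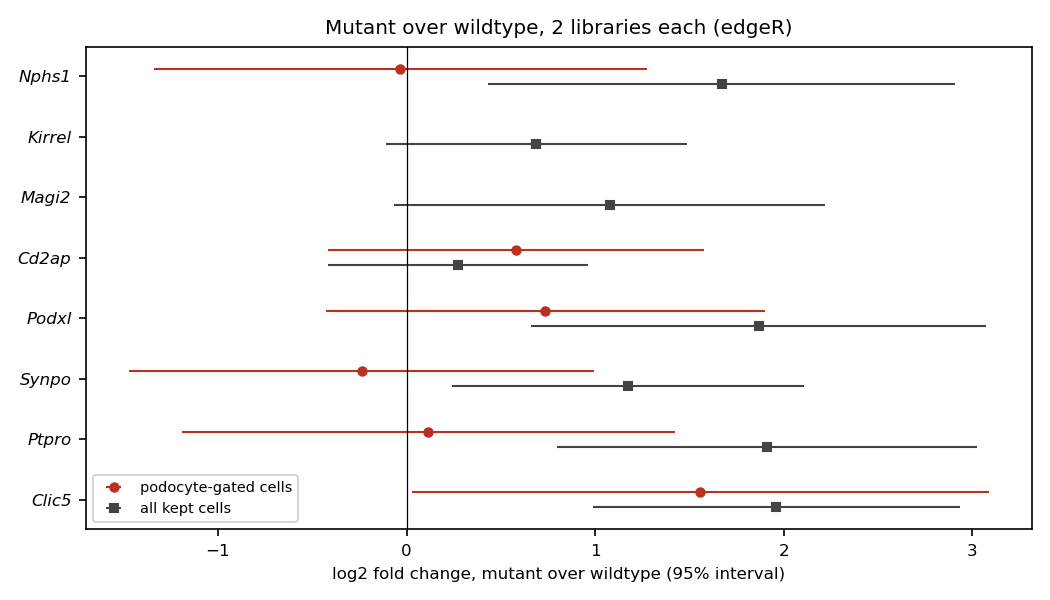
Log2 fold change of mutant over wildtype with 95% intervals (edgeR, 2 libraries per genotype) in podocyte-gated cells and over all kept cells. Over all kept cells the points lie between 0.27 and 1.96, and in podocyte-gated cells between -0.24 and 1.56; Kirrel and Magi2 failed the filter in the podocyte gate.

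Over all kept cells, where 1.32% of 15777 genes were called and 0.963% called higher, all 8 genes passed the filter and 1 was called. Clic5 was at 9.81, 4.54, 15.8 and 42.6 CPM, higher in both mutant libraries than in both wildtype ones, by 1.96 on the log2 scale (SE 0.46, adjusted p 0.0451 in edgeR). Podxl was at 20.9, 10.6, 28.3 and 94.5 CPM (1.87, adjusted p 0.205 in edgeR), Ptpro at 4.63, 1.98, 5.93 and 19.1 CPM (1.91, adjusted p 0.115) and Nphs1 at 10.6, 2.43, 18.4 and 23.5 CPM (1.67, adjusted p 0.289). For these 3 too, both mutant libraries stood above both wildtype libraries, and the differences did not pass the test. Kirrel and Magi2 had the same order of libraries, while Synpo and Cd2ap overlapped. The share of all genes with this order was not counted over all kept cells, so the order is a description. Synpo was at 1.18, Magi2 at 1.08, Kirrel at 0.69 and Cd2ap at 0.27, the last with an interval from -0.41 to 0.96. The median of the 8 was 1.42 and that of all genes 0.01. The Clic5 call was lost without wildtype 2 (adjusted p 0.0795 in edgeR), without mutant 2 (0.303), without the mitochondrial limit (0.158) and with the replicate number as a block (0.173). Without mutant 1, 5 of the 8 genes were called.

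In a sum over all cells, more podocytes and more RNA per podocyte cannot be told apart, and 33.2% of the Clic5 UMIs lay in the podocyte gate. Other lineages also moved with genotype over all kept cells. The summed nephron progenitor list was at 538, 548, 76.7 and 93.6 CPM, with 326, 773, 0 and 8 cells in its gate, and the summed stromal list at 1141, 523, 4157 and 3760 CPM. Their part in the values of the 8 genes and in the podocyte share was not tested. The podocyte gate held 1.62% and 1.88% of kept wildtype cells and 3.70% and 4.71% of kept mutant cells, or 1.75% ± 0.183 and 4.21% ± 0.713 (SD, n = 2 each). Both mutant shares were above both wildtype shares, and the two-sided exact permutation test gave p = 0.333, its lowest possible value here. The difference of 2.46 percentage points fell to 0.108 with a podocyte list shorter by 2 genes, a change made after the values were seen, which left 8, 18, 4 and 23 cells. The mitochondrial share of barcodes moved with genotype in the same direction, and its part in the shares was not tested.

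In the remaining lineages no member was called between genotypes by edgeR. Early nephron (0% of 9647 genes called, 298 at an unadjusted p below 0.05) and endothelium (0% of 8134, 377) gave no call at all, stroma gave 0.174% and ureteric bud with collecting duct 0.336%. Podxl had the largest differences among the members, 1.68 in early nephron-gated cells (95% interval from -0.14 to 3.50) and 1.72 in stroma-gated cells (from 0.39 to 3.05, adjusted p 0.521 in edgeR). In endothelium, where Podxl was well measured, it was at 0.30 with an interval from -0.47 to 1.08. Cd2ap lay between 0.23 and 0.71 in the 4 lineages, each interval including 0.

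The genes whose mean level over 9 gates was most like that of the 8 summed were Wipf3, whose product binds the actin regulator N-WASP (Pearson r 0.9746 over gates, on log2 of CPM + 5), Klk7 (0.942), RP23-296I6.12 (0.939), the gate gene Tdrd5 (0.939) and Entpd3 (0.936), among 15906 genes. Single genes had partners of their own. Nphs1 was most like Alb (0.998) and BB014433 (0.998), Podxl like Sema3g (0.989), Tspan2 (0.970) and Sema7a (0.965), and Ptpro like Asb10 (0.994), Fgl2 (0.982) and Tbx19 (0.975). Synpo was most like Unc5a (0.993), Aplp1 (0.985) and Corin (0.983), and Clic5 like Ankrd33b (0.982), Myl7 (0.968) and Ntn4 (0.949). Magi2 was most like Gm20512 (0.988), Gm26643 (0.967) and Gabra4 (0.964). Cd2ap, found everywhere, was most like Ten1 (0.941), Kdm5a (0.925) and Nat6 (0.913), and Kirrel like Zfp644 (0.947) and the mesenchymal cadherin gene Cdh11 (0.939). With 9 gates that share libraries these values describe the profiles and carry no test.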

How the data were processed

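Each library's table, as the authors deposited it, holds raw counts per gene and cell barcode, here called UMIs although the sources used here do not state that molecular identifiers were collapsed. Bowtie2 2.2.7 and the build mm10 are named per the submitters' processing notes, and the annotation and the handling of strand are not given in the sources used here. The 8 genes and the marker and pathway lists were chosen with earlier results of these data known. Every barcode in the tables had at least 500 genes. Barcodes over 10% mitochondrial counts and the 5% per library with the highest Scrublet score (scanpy 1.11.5) were left out. Shares of kept cells are of these cells. Counts were summed per library and gate where each library had at least 25 cells, and compared by edgeR's robust quasi-likelihood test (version 4.0.16, R 4.3.3) after TMM scaling and filterByExpr in 15 comparisons, with Benjamini-Hochberg adjustment over all genes tested and a threshold of 0.05. The fits between gates had library as a block. The fits over early nephron cells and of the interaction took 1 spread for all genes of a level, so their p-values are smaller than 4 libraries alone would give. Intervals cover 95% and are not adjusted, and limits for counts of 0 (3 counts) cover counting error only. DESeq2 1.42.0 was an alternative. The edgeR fit, and not the other steps, was tested on simulated counts: for podocyte over early nephron, 59.5% of 2-fold changes were recovered among 8527 genes. Named genes are the 8, up to 4 per list past the test with the smallest p (2 where none passed), and those with the most alike profiles. Tjp1 and Clic4 were named after their values were seen. Promoter windows of 7 of the genes were looked up in RefSeq, and those without exon overlap or on chromosomes not used here are printed only as far as shown. Some genes and 1 split of podocyte-gated cells are not reported here.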

Additional observations from a re-analysis of the deposited data

Results flagged for a closer look

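In 2 classes of cells that no comparison takes as a group of its own, the first of them part of all kept cells, some of the 8 genes stood higher in both mutant libraries than in both wildtype libraries. In the cells with the podocyte and early nephron lists this held for 5 of the 8 genes, against 16.3% of the genes with at least 10 UMIs there, with 14, 46, 12 and 52 cells in wildtype 1, wildtype 2, mutant 1 and mutant 2. The lower mutant library had 20.4 CPM for Nphs1 (wildtype 14.3 and 13.2), 95.9 CPM for Podxl (wildtype 14.3 and 21.1), 23.3 CPM for Ptpro (wildtype 14.3 and 5.28), 47.6 CPM for Clic5 (wildtype 21.4 and 21.1) and 226 CPM for Cd2ap (wildtype 164 and 132). Among barcodes over the mitochondrial limit it held for 2 of the 8 genes, near the 21.8% of genes with at least 10 UMIs, with 20.4 CPM for Synpo (wildtype 15.9 and 9.38) and 11.4 CPM for Ptpro (wildtype 10.6 and 11.3). In the cells with the podocyte and stromal lists it held for 0 of the 8 (15.4% of genes). None of these differences was tested, and several rest on few UMIs, such as 3 for Ptpro in the barcodes of mutant 1 over the limit.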

How the results depend on the processing

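Over 17 alternatives, 493 values of called genes among the 8 were recomputed: 480 kept their direction and their call, 13 kept the direction without the call, and none reversed. Of 213 values that had no call, 176 stayed so, 12 gained a call and 25 reversed. Where a genotype had 1 library, its spread was taken from the other genotype. The labels do not say whether the library numbers pair the samples. Deviations of same-numbered libraries correlated at -0.14 in podocyte-gated cells and 0.08 over all cells. With 2 libraries per genotype this check cannot decide whether they are paired. With the replicate block 3 genes were called in podocyte-gated cells and 0 of the 8 over all cells, and with the crossed replicate block, added after that check, 0 genes. Counts with single libraries left out are given as ranges.

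In podocyte-gated cells between genotypes, where 0 genes were called, 4 were without the doublet step, 2 with a podocyte list shorter by 2 genes, 18 without the gate's lead and 2 to 35 with a library left out, of which 0 to 1 among the 8. Over all cells 208 genes were called, and 267 to 379 with a library left out. Of the 8 genes 1 was, against 2 with DESeq2, 4 without the count filter, 0 without the mitochondrial limit and 0 to 5 with a library left out. For the interaction 5 genes were called, against 0 with DESeq2 or without the library block, 2 with a gate lead of 4 times, 2 without the doublet step, 98 without the lead, 3 without Col1a2 in the stroma list and 1 to 22 with a library left out. Of the 8 genes 0 were, and 1 with the shorter list. For podocyte over early nephron 3153 genes were called, against 1826 with DESeq2, 1086 without the library block, 2033 with a lead of 4 times, 972 with the shorter list and 1499 to 3376 with a library left out. For early nephron over the other gates 0 of the 8 were, against 2 without the filter, 1 with a lead of 4 times, 1 with the shorter list, 1 without Col1a2 and 0 to 1 with a library left out. For ureteric bud and collecting duct 4 of the 8 were, against 2 without the lead.

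Among all genes, the counts of podocyte or other gates against the rest fell to between 1571 and 2703 without the library block. Between genotypes stroma gave 4 to 120 genes over the alternatives that moved its 19, ureteric bud and collecting duct 7 to 113 for its 29, early nephron 1 to 24 and endothelium 3 to 21 for their 0. The podocyte share difference of 2.46 points was 1.85 with a gate minimum of 5 UMIs, 1.11 with a lead of 4 times, 4.44 without the lead, 0.108 with the shorter list and 3.50 without Col1a2.

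The reversed values were log2 fold changes without a call. In podocyte-gated cells between genotypes Nphs1 (-0.03) was at 0.40 with the replicate block, 0.19 with the crossed block, 1.67 without wildtype 1, 0.11 with at least 1000 genes per cell, 0.012 without the doublet step, 1.41 without the lead and 0.23 without Col1a2. Synpo (-0.24) was at 0.39 without wildtype 1, 0.26 without mutant 1, 1.31 without the lead and 0.051 without Col1a2. Podxl (0.74) was at -0.63 without mutant 2 and -0.27 with the shorter list. Ptpro (0.12) was at -0.12 with DESeq2, -0.053 with the replicate block, -0.37 with the crossed block, -0.52 without wildtype 2, -1.82 without mutant 2, -0.19 with a lead of 4 times, -0.0043 with a minimum of 5 UMIs and -0.010 with the shorter list. Cd2ap was at -0.15 without mutant 2 there and at -0.14 over all cells, and for podocyte over ureteric bud at -0.047 without mutant 2 and -0.18 without the lead. With single libraries left out these values ranged in podocyte-gated cells from -0.96 to 1.67 (Nphs1), -1.86 to 0.39 (Synpo), -0.63 to 1.35 (Podxl), -1.82 to 0.75 (Ptpro) and -0.15 to 1.0008 (Cd2ap), for Cd2ap over all cells from -0.14 to 0.58, and over ureteric bud from -0.047 to 0.31. The causes were not tested. Depth limits Magi2 and Kirrel, and in podocyte-gated cells changes of 2-fold between genotypes.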

Other observations

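Col1a2 stood apart from other collagens in podocyte-gated cells. It was at 465, 184, 245 and 781 CPM there, against 56.9, 54.1, 14.4 and 50.6 CPM for Col1a1 and 66.4, 24.6, 14.4 and 42.6 CPM for Col3a1, while stroma-gated cells had 4163, 1484, 6347 and 5769 CPM of Col1a2.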
